A study of Mus musculus with 9 samples.

Results

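Small intestine epithelial cells labelled HIF2α∆IEC were set against those of littermate controls, across all genes. The comparison used 6 of the 9 libraries of the study, and 15486 of the 43629 genes in the deposited table had enough counts to be tested. The 3 HIF2α∆IEC libraries came from mice labelled for loss of HIF2α, the product of Epas1, in intestinal epithelial cells. The 3 control libraries are labelled as littermates of genotype HIFα F/F, and that label does not say which HIFα gene was floxed. A further 3 libraries of HIF1α∆IEC, where the label names HIF1α, were in the same fit and serve below for direct comparison. All 9 libraries carry the label of naïve mice, although the extraction text of the same labels speaks of a collagen-induced arthritis model. The labels give no age, no sex and no Cre driver, and nothing in them ties libraries to separate animals. The p-values thus rest on the spread among these libraries, part of which may be technical.

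HIF2α and HIF1α are oxygen-regulated transcription factor subunits. When oxygen or iron is short they escape hydroxylation and degradation, pair with ARNT and bind short ACGTG or GCGTG core sequences near their targets. In the intestinal epithelium HIF2α is best known for switching on iron uptake and export genes, among them Slc11a2, Cybrd1 and Slc40a1.

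Total counts ran from 31576340 to 40391453 in the HIF2α∆IEC libraries and from 21461212 to 24706678 in the controls, so depth did not overlap between the groups. The transcriptome of HIF2α∆IEC replicate 1 stood apart: it held the highest or the lowest of the 6 values for 61.2% of tested genes, against 44.1% for replicate 2 and 16.9% for replicate 3 of its group and 15.6% to 41.8% for the controls. Of its counts, 10.8% came from mitochondrially encoded genes, against 5.08% in both other HIF2α∆IEC libraries and 5.04% to 6.74% in the controls. Xist and Y-linked genes read HIF2α∆IEC replicate 1 and all 3 controls as male, and HIF2α∆IEC replicates 2 and 3 as female. A gene whose 3 HIF2α∆IEC values all lie beyond all 3 control values has a male library on each side. Its values in HIF2α∆IEC replicates 2 and 3 are from female libraries, so such a separation is not free of sex. HIF2α∆IEC replicate 3 was closer to control replicate 3 than to any library of its own group, with a Pearson correlation of log2 counts scaled per library (CPM, counts per 1e6) of 0.986, against 0.982 with HIF2α∆IEC replicate 2. The defining epithelial gene Epcam had 1430.2, 1699 and 1814 CPM in HIF2α∆IEC, against 1588, 1454 and 1673 CPM in controls. All CPM are scaled by the trimmed mean of M-values (TMM), and values in each group are given in the order of replicates 1, 2 and 3.

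Epas1, the targeted gene (mm10 chromosome 17, 86753907 to 86833410), had 36.1, 11.2 and 11.6 CPM in HIF2α∆IEC, against 32.7, 14.5 and 21.1 CPM in controls. The library labelled HIF2α∆IEC replicate 1 had the most Epas1 of all 6. The log2 fold change was -0.21 ± 0.46 (SE; edgeR quasi-likelihood test, adjusted p = 1.00), and it was -0.98 without HIF2α∆IEC replicate 1. The counts cover the whole gene and do not show whether a floxed part was lost, so every direction below rests on the labels. Hif1a, the other oxygen-regulated subunit, had 34.9, 15.1 and 22.5 CPM in HIF2α∆IEC, against 16.0, 19.9 and 21.1 CPM in controls. Arnt, their shared partner, had 41.5, 27.4 and 41.5 CPM, against 34.3, 34.7 and 40.4 CPM. Neither of these overlapping genes passed the test.

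No gene of the 15486 passed an adjusted p of 0.05 in edgeR (0%), and 287 (1.85%) had an unadjusted p under 0.05, of which 172 were higher and 115 lower in HIF2α∆IEC. DESeq2 called 5 genes on the same counts, namely Pxdn, Mt1, Acp1, 1 of 2 entries named Mical3 and the pseudogene Gm6969. A plainer reading asks which genes separate all 3 HIF2α∆IEC libraries from all 3 controls. This held for 859 genes (5.55%), with 470 above all controls (3.03%) and 389 below (2.51%). Were the 6 libraries exchangeable, complete separation would have a probability of 0.1 for each gene, the exact two-sided permutation p. The share seen was below that, so separation alone does not mark a gene as changed. The share at an unadjusted p under 0.05 was likewise below 0.05. The median log2 fold change was 0.60 among the 470 and -0.53 among the 389. Only 184 of the 859 had at least a 2-fold and 39 at least a 4-fold difference, and 246 averaged under 1 CPM.

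The gene with the smallest p was Pxdn (ENSMUSG00000020674, chromosome 12, 29938036 to 30017658), which encodes peroxidasin, a secreted peroxidase that cross-links collagen IV in basement membranes. It had 8.60, 21.1 and 18.4 CPM in HIF2α∆IEC, against 0.391, 0.975 and 1.40 CPM in controls. Every HIF2α∆IEC library was thus several times above the highest control, and the group mean was 16.0 ± 6.58 CPM in HIF2α∆IEC and 0.923 ± 0.508 CPM in controls (SD, n = 3 each), a 17.4-fold difference. The log2 fold change was 4.10 ± 0.53 (SE; edgeR adjusted p = 0.119). Pxdn passed the test without HIF2α∆IEC replicate 1 (adjusted p = 0.0160), with the replicate number as a block (0.0207), with no count filter (0.000201) and in DESeq2 (1.10e-12). It did not pass with a sex term, limma-voom, other scalings, the other filter, the 6 libraries alone, without mitochondrial genes or without any other of the 6 libraries, where the adjusted p ran from 0.112 to 1.00. HIF1α∆IEC libraries had 0.906, 0.950 and 1.64 CPM, at the level of the controls, and the direct HIF2α∆IEC against HIF1α∆IEC log2 fold change was 3.77 ± 0.52 (adjusted p = 0.219).

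Acp1 (chromosome 12, 30893326 to 30911612), a low molecular weight protein tyrosine phosphatase, had 45.7, 35.7 and 48.8 CPM in HIF2α∆IEC, against 6.74, 13.6 and 13.2 CPM in controls. These groups were separated by more than the whole spread of either, and the log2 fold change was 1.95 ± 0.37 (adjusted p = 1.00; DESeq2 adjusted p = 0.00201). HIF1α∆IEC had 6.05, 13.4 and 6.99 CPM, and the direct log2 fold change against HIF1α∆IEC was 2.31 ± 0.37 (edgeR adjusted p = 0.307). Acp1 lies on the minus strand, and its start is 894 kb from the end of Pxdn. Tmem18, the tested gene between them, did not separate the groups, with 20.8, 10.6 and 19.3 CPM in HIF2α∆IEC and 10.8, 22.4 and 20.9 CPM in controls. Sh3yl1, which starts next to the Acp1 promoter in the opposite direction, did not either, with 24.0, 14.99 and 17.3 CPM in HIF2α∆IEC and 14.3, 16.9 and 16.7 CPM in controls.

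Mt1 (chromosome 8, 94179089 to 94180325) encodes metallothionein 1, a small protein that binds zinc and copper. It had 896, 577 and 578 CPM in HIF2α∆IEC, against 236, 181 and 265 CPM in controls. The lowest HIF2α∆IEC value exceeded the highest control by more than the control range, and the log2 fold change was 1.59 ± 0.25 (adjusted p = 0.296; DESeq2 adjusted p = 3.28e-05). HIF1α∆IEC lay between with 409, 445 and 377 CPM. Its neighbour Mt2 (94172618 to 94173567), the sister metallothionein that shares the metal response, had 110, 43.7 and 75.2 CPM in HIF2α∆IEC, against 81.4, 62.1 and 104 CPM in controls, with full overlap and a log2 fold change of -0.11 ± 0.33. For every count of Mt2 the HIF2α∆IEC libraries held 8.14, 13.2 and 7.69 counts of Mt1, against 2.90, 2.91 and 2.55 in controls. The mean ratio was 9.68 ± 3.07 in HIF2α∆IEC and 2.79 ± 0.204 in controls (SD, n = 3 each; exact two-sided permutation p = 0.1, the smallest that 3 against 3 allows). In HIF1α∆IEC the ratio was 10.9, 11.3 and 15.01, so the controls stood apart from both ∆IEC groups in this ratio. These ratios were computed after the values of both genes were seen, so their permutation p describes the values and is not an independent test.

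The promoters of these 4 genes are shown because the pathway under study acts through short DNA motifs: 250 bases before each RefSeq start (GRCm38.p6), with matches on either strand in capitals. The motifs searched were the HIF cores ACGTG and GCGTG and the metal response element cores TGCACNC and TGCGCNC, which MTF1 is known to bind.
Mt1 promoter: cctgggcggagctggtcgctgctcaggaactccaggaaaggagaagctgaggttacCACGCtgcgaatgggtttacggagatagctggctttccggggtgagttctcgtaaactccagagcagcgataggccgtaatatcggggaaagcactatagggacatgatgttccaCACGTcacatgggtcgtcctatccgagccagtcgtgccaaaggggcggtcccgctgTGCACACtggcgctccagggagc
Mt2 promoter: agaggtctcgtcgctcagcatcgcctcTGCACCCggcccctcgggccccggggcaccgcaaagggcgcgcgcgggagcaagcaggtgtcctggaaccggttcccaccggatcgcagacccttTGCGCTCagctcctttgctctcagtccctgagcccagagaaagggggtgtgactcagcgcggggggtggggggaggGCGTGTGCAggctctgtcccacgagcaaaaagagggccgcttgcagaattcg
Pxdn promoter: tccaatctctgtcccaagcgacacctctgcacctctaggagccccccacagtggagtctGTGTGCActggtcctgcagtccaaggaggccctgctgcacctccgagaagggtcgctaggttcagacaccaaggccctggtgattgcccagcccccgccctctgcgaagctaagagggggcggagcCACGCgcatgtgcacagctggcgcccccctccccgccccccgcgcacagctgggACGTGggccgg
Acp1 promoter: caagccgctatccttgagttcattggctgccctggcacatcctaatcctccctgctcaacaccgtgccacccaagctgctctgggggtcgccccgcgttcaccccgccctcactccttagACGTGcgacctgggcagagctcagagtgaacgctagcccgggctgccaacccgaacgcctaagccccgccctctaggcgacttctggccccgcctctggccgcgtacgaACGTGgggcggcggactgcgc
The Mt1 sequence is chr8:94178839-94179088 and the Mt2 sequence chr8:94172368-94172617, both on the plus strand, the Pxdn sequence chr12:29937786-29938035 on the plus strand and the Acp1 sequence chr12:30911613-30911862 on the minus strand. HIF cores numbered 2 in Mt1, 1 in Mt2, 2 in Pxdn and 2 in Acp1, and 38.6% of the 32851 promoters in the table hold at least 1. Metal response cores numbered 1 in Mt1, 3 in Mt2, 1 in Pxdn and 0 in Acp1, and 21.4% of promoters hold at least 1. In Mt2 a GCGTG match and a TGCACNC match on the other strand share 3 bases. Within the 250 bases searched, Mt2 held more metal response cores than Mt1. Bases outside each window, among them those after the annotated start, were not searched. The Acp1 window also holds the start of Sh3yl1, at 30911668, whose values overlapped between the groups. A match here is a string of letters and not a bound site.

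**Figure D1:**
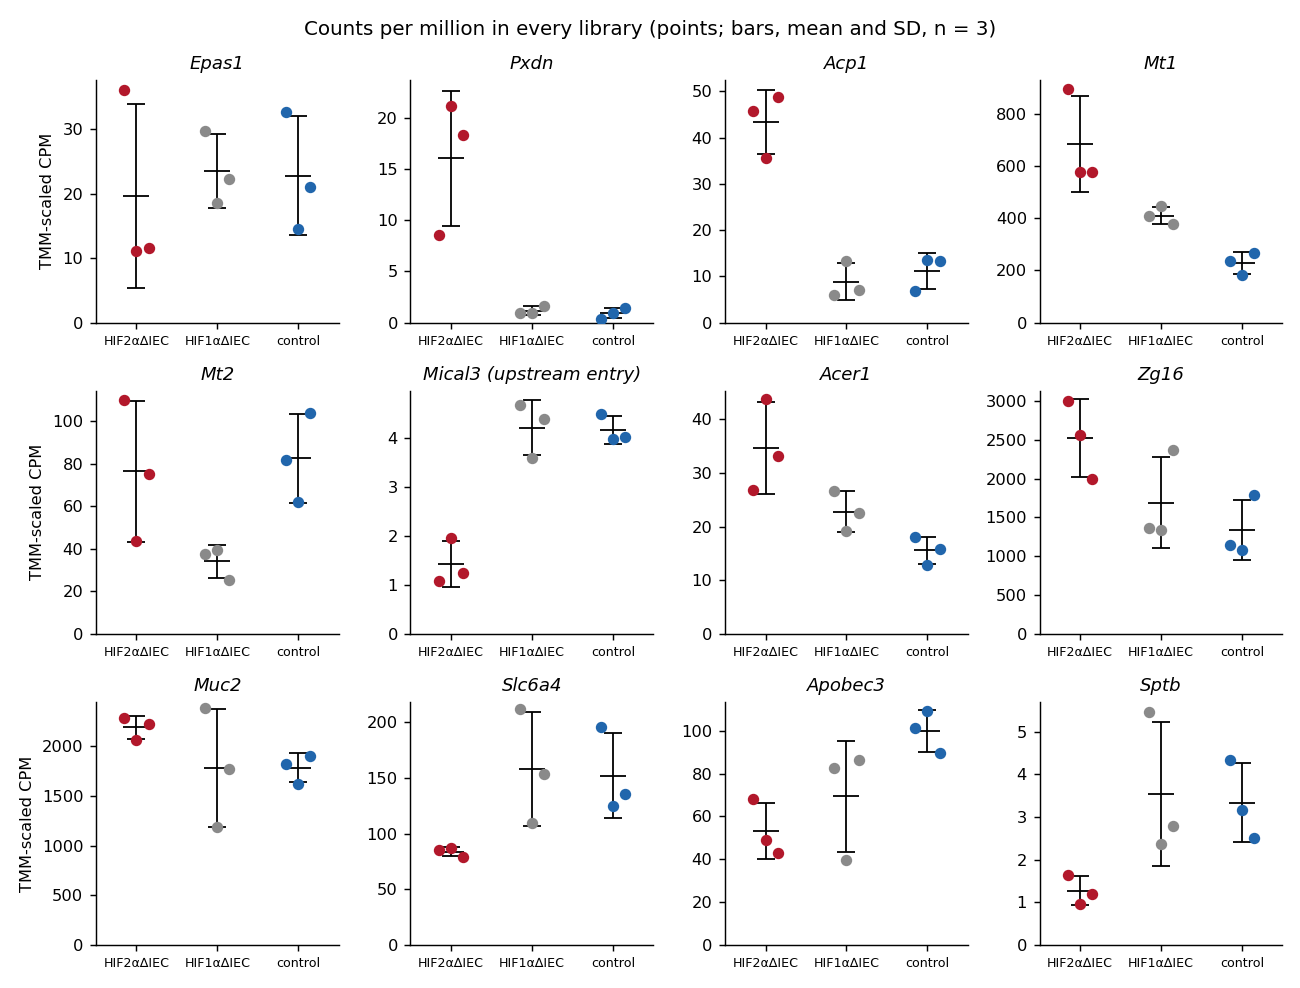
TMM-scaled CPM (y axis, from 0) of 12 genes in each HIF2α∆IEC (red), HIF1α∆IEC (grey) and control (blue) library, with bars for the mean and SD of 3 libraries. All 3 HIF2α∆IEC points for Pxdn, Acp1 and Mt1 lie above all controls and those for the upstream Mical3 entry, Slc6a4, Apobec3 and Sptb below, while Epas1 and Mt2 overlap.

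Among genes lower in HIF2α∆IEC, the smallest p of those whose groups did not overlap belonged to an entry named Mical3, a member of the MICAL family of actin-oxidising enzymes. The deposited table holds 2 entries of that name on the minus strand of chromosome 6, which the GENCODE M21 annotation joins into 1 gene from 120931707 to 121130999. The upstream entry (ENSMUSG00000003178, 121007241 to 121081609) had 1.07, 1.97 and 1.25 CPM in HIF2α∆IEC, against 4.49, 3.98 and 4.02 CPM in controls and 4.67, 3.59 and 4.39 CPM in HIF1α∆IEC, and its log2 fold change was -1.54 ± 0.35 (edgeR adjusted p = 1.00; DESeq2 adjusted p = 0.0124). The downstream entry (ENSMUSG00000051586, 120931707 to 121003153) had 12.97, 20.9 and 16.0 CPM in HIF2α∆IEC, against 20.2, 18.1 and 16.2 CPM in controls, with a log2 fold change of -0.13 ± 0.30. The separation was thus seen in the 5′ portion of the gene, while the more abundant 3′ portion overlapped.

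Arid5b, a DNA-binding regulator, had 2.96, 3.25 and 5.34 CPM in HIF2α∆IEC, against 7.52, 9.31 and 9.64 CPM in controls and 7.50, 9.03 and 9.74 CPM in HIF1α∆IEC. The direct log2 fold change against HIF1α∆IEC was -1.56 ± 0.35 for the upstream Mical3 entry and -1.18 ± 0.32 for Arid5b (edgeR adjusted p = 0.649 for each). Neither passed in edgeR, and DESeq2 called the Mical3 entry (adjusted p = 0.00551). The processed pseudogene Gm6969 showed another pattern, with 1.13, 1.25 and 1.202 CPM in HIF2α∆IEC, against 69.1, 51.3 and 0.683 CPM in controls. Its large log2 fold change of -5.07 ± 1.09 came from control replicates 1 and 2, and control replicate 3 lay below every HIF2α∆IEC library.

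Most of the steepest differences were in genes of low abundance. The 10 highest log2 fold changes among non-overlapping genes of at least 1 CPM held 3 globins (Hbb-bt, Hba-a1 and Hbb-bs), Pxdn, Tc2n, the protease inhibitor Slpi, the mesothelial surface protein Msln, Igfbp6, which binds insulin-like growth factors, the fibrillar collagen Col3a1 and the amino acid transporter gene Slc6a20b. Hbb-bs, an adult beta-globin, had 54.5, 8.78 and 6.68 CPM in HIF2α∆IEC, against 1.56, 3.78 and 1.29 CPM in controls, so that most of its excess lay in replicate 1. Tc2n had 3.24, 1.68 and 3.40 CPM, against 0.244, 0.203 and 0.797 CPM in controls (log2 fold change 2.71 ± 0.73). Slc6a20b had 8.53, 3.99 and 2.45 CPM, against 1.51, 1.18 and 1.06 CPM in controls, and 1.01, 0.686 and 1.32 CPM in HIF1α∆IEC. Acer1, an alkaline ceramidase that splits ceramide, was moderately abundant, with 26.9, 43.8 and 33.2 CPM in HIF2α∆IEC, against 18.02, 12.9 and 15.7 CPM in controls (log2 fold change 1.16 ± 0.27).

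At the other end, the 10 lowest log2 fold changes of that kind ran from -2.33 in the immunoglobulin segment Ighv5-16 to -1.26 in Wwtr1, the TAZ co-activator of the Hippo pathway. Pgc, a stomach pepsinogen, had 0.693, 0.598 and 0.185 CPM in HIF2α∆IEC, against 2.49, 1.504 and 1.21 CPM in controls. Gif, the gastric intrinsic factor, averaged under 1 CPM and so was not among those 10. It had 0.0630, 0.171 and 0 CPM, against 0.342, 1.18 and 0.341 CPM. Both gastric genes were thus near the floor of detection in either group. Sptb, the beta-spectrin of red cells, had 1.64, 0.969 and 1.202 CPM, against 4.35, 3.17 and 2.504 CPM in controls, on the low side while the globins were on the high side. Vasn, a membrane protein that binds TGFβ, had 0.913, 1.82 and 2.03 CPM, against 3.86, 3.90 and 4.48 CPM.

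By amount of RNA, the non-overlapping gene with the largest gain was Zg16, a lectin that goblet cells secrete into mucus. It had 3006, 2566 and 2001 CPM in HIF2α∆IEC, against 1149, 1076 and 1785 CPM in controls, and its log2 fold change was 0.92 ± 0.30 (adjusted p = 1.00). Muc2, the gel-forming mucin of the same cells, had 2285, 2064 and 2228 CPM, against 1826, 1623 and 1905 CPM, a smaller separation of 0.30 ± 0.26. Other goblet genes of high abundance overlapped: Fcgbp, which binds mucus, had 5119, 4996 and 4440.2 CPM in HIF2α∆IEC and 2556, 3458 and 4716 CPM in controls, and Tff3 had 983, 1059 and 768 CPM in HIF2α∆IEC and 828, 620 and 753 CPM in controls. Of the 10 goblet markers tested, 2 lay above all controls and none below, where 3.03% of all tested genes lay above and 2.51% below, with a median log2 fold change of 0.19, against 0.01 over all tested genes.

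Other large non-overlapping gains were in the peroxide-scavenging enzyme Prdx1 (1391, 1229 and 1182 CPM in HIF2α∆IEC, against 883, 942 and 1021 CPM in controls), the brush border peptidase homologue Naaladl1, the actin-binding peptide gene Tmsb4x, and Slc27a4, a fatty acid transporter and acyl-CoA synthetase. Slc27a4 had 796, 559 and 578 CPM, against 539, 392 and 537 CPM, so the gap between the nearest libraries was narrow. The largest non-overlapping loss was in Eef1a1, the translation elongation factor, with 4337, 4664 and 5473 CPM in HIF2α∆IEC, against 7174, 5873 and 5694 CPM in controls (log2 fold change -0.37 ± 0.22). The pseudogene Gm6472, which may share reads with its parent gene, followed with 107, 204 and 154 CPM, against 396, 323 and 283 CPM.

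Slc6a4, the serotonin transporter, had 3 close values, with 85.0, 86.9 and 79.2 CPM in HIF2α∆IEC, against 195, 125 and 136 CPM in controls and 212, 110 and 154 CPM in HIF1α∆IEC. Its log2 fold change was -0.86 ± 0.27 against controls and -0.92 ± 0.27 against HIF1α∆IEC (adjusted p = 1.00 and 0.649). Apobec3, an antiviral cytidine deaminase, had 67.9, 48.9 and 42.9 CPM in HIF2α∆IEC, against 101.3, 109 and 89.4 CPM in controls. All 3 HIF1α∆IEC values for Apobec3 also lay below every control, at 82.4, 39.4 and 86.3 CPM. Limd1, a scaffold that in human cells joins the HIF prolyl hydroxylases to VHL, had 85.8, 93.9 and 115 CPM, against 164, 123 and 131 CPM in controls.

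Ranking by amount without asking for separation put genes whose groups overlapped at the top of both ends. The largest gain was mt-Co1, a mitochondrially encoded oxidase subunit, at 47061, 20261 and 19648 CPM in HIF2α∆IEC, against 18381, 22951 and 20970 CPM in controls. Only HIF2α∆IEC replicate 1 exceeded the controls. The largest loss was Defa24, a Paneth cell defensin, at 2562, 8216 and 5268 CPM, against 11193, 9179 and 4649 CPM. Without HIF2α∆IEC replicate 1 the largest gain was Lyz1, the Paneth cell lysozyme, at 8778 and 7715 CPM in HIF2α∆IEC, against 3270, 8200 and 7232 CPM in controls, and the largest loss was Yam1. Lyz1 was named after its values were seen.

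**Figure D2:**
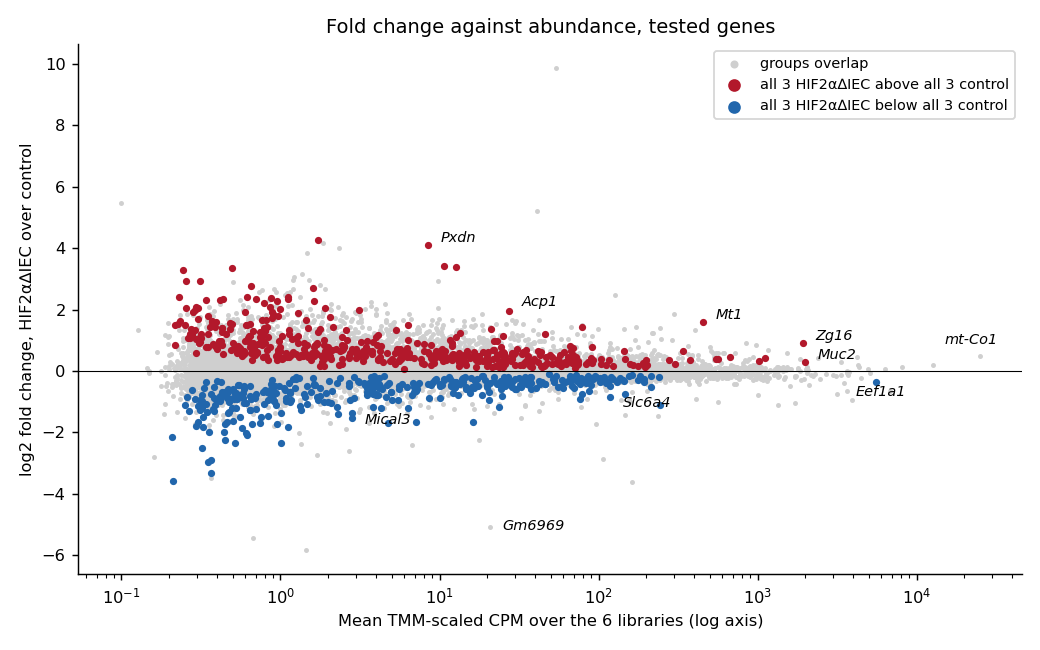
log2 fold change of HIF2α∆IEC over control (y axis) against mean TMM-scaled CPM of the 6 libraries (x axis, log scale), 1 point per tested gene. Red points (470) have all 3 HIF2α∆IEC libraries above all 3 controls and blue points (389) all below, and most lie at low abundance near 0 on the y axis.

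The separating genes were spread unevenly over abundance. Of the 100 most abundant genes, 5 separated the groups (5.0%), against 18 of the next 900 (2.0%), 136 of the next 4000 (3.40%) and 700 of the remaining 10486 (6.68%). The median log2 fold change was -0.02 in each of the first 3 classes and 0.05 in the last. Summed over the tested genes, those higher in HIF2α∆IEC gained 62740 CPM and those lower dropped by 59295 CPM. No gene was on in one group and off in the other, taking at least 10 counts in every library of a group and at most 1 in every library of the other.

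Of the biotypes in the deposited table, protein-coding genes separated the groups in 684 of 13418 cases (5.10%), 391 with HIF2α∆IEC above and 293 below. Long intergenic non-coding RNAs did so in 41 of 398 cases (10.3%), and here 14 lay above and 27 below. Antisense genes did so in 29 of 324 (8.95%), with 7 above and 22 below. Small nucleolar RNAs did so in 12 of 70 (17.1%), with 9 above and 3 below, and processed pseudogenes in 44 of 591 (7.45%). These classes are scarce: within the lowest abundance class, where 6.68% of all genes separated, the shares were 6.24% for protein-coding genes, 10.6% for long intergenic RNAs, 9.01% for antisense genes and 17.1% for small nucleolar RNAs. The median CPM in that class was 7.34 for protein-coding genes, 0.958 for long intergenic RNAs and 0.591 for small nucleolar RNAs. Depth differed between the groups in the same direction throughout, and its part in these shares was not tested. The strand setting of the counting is not known, so an antisense count may hold reads of its partner gene.

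Among long intergenic RNAs, D430018E03Rik had 0.0630, 0.0570 and 0.0693 CPM in HIF2α∆IEC, against 0.928, 0.284 and 0.797 CPM in controls, and Snhg1, a host of small nucleolar RNAs, had 27.7, 37.3 and 26.5 CPM, against 15.1, 25.1 and 20.9 CPM. Among antisense genes, Gm14453 had 0.0630, 0.142 and 0.0462 CPM, against 0.830, 0.772 and 0.341 CPM. The miRNA locus of highest count among those that separated, Mir5125, had 24.8, 36.4 and 29.5 CPM in HIF2α∆IEC, against 5.52, 14.9 and 14.6 CPM in controls (log2 fold change 1.37 ± 0.43). This 79-base locus lies inside Srrm2, a splicing factor gene on the same strand, and Srrm2 itself had 529, 715 and 631 CPM in HIF2α∆IEC, against 439, 497 and 499 CPM in controls. The count is of reads over the hairpin locus, not of the mature miRNA. Immunoglobulin variable segments, which the deposited biotypes split into IG_LV and IG_V, had high medians in log2 fold change. These were 1.06 for 51 IG_LV and 1.42 for 31 IG_V segments, but only 1 and 2 of them separated the groups. The high medians came from HIF2α∆IEC replicate 1. IG_LV segments held 0.0347%, 0.00274% and 0.00252% of counts in HIF2α∆IEC, against 0.00405%, 0.00719% and 0.00625% in controls. IG_V segments held 0.0163%, 0.00212% and 0.00169%, against 0.00236%, 0.00369% and 0.00290%. HIF2α∆IEC replicates 2 and 3 thus lay below every control in both.

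Shares of all counts were compared for 39 classes, namely 14 biotypes, 22 chromosomes and 3 sets of the most abundant genes, and 2 classes separated the groups. Chromosome 1 held 4.96%, 4.87% and 5.04% of counts in HIF2α∆IEC, against 5.21%, 5.27% and 5.15% in controls, and transcribed processed pseudogenes held 0.0475%, 0.0782% and 0.0665%, against 0.0931%, 0.0893% and 0.0785%. Each had an exact two-sided permutation p of 0.1, the smallest that 3 against 3 allows, and an adjusted p of 1.00.

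Chromosome 12 had the highest share of separating genes among chromosomes 1 to 19 and X, near the 0.1 that exchangeable libraries would give. Of its 547 tested genes, 53 separated the groups (9.69%), 25 with HIF2α∆IEC above and 28 below, and 28 (5.12%) had an unadjusted p under 0.05, against 1.85% of all tested genes. The next chromosomes were X with 7.07%, 9 with 6.94% and 13 with 6.51%, and the lowest among chromosomes 1 to 19 and X was 19 with 3.76%. Without the immunoglobulin genes, which lie at the end of chromosome 12, the share that separated was 10.2%, and 20 of 502 (3.98%) had an unadjusted p under 0.05. The share that separated was the highest of 20 chromosomes under each scaling and filter tried and with each library left out, but its excess over all genes shrank from 1.75 times to 1.17 times without HIF2α∆IEC replicate 1 (22.7% against 19.3%) and lay between 1.255 and 1.47 times without each other library in turn. In the direct comparison with HIF1α∆IEC, where 10.4% of all genes did not overlap and 0% passed the test, 75 genes of chromosome 12 (13.7%) did not overlap.

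**Figure D3:**
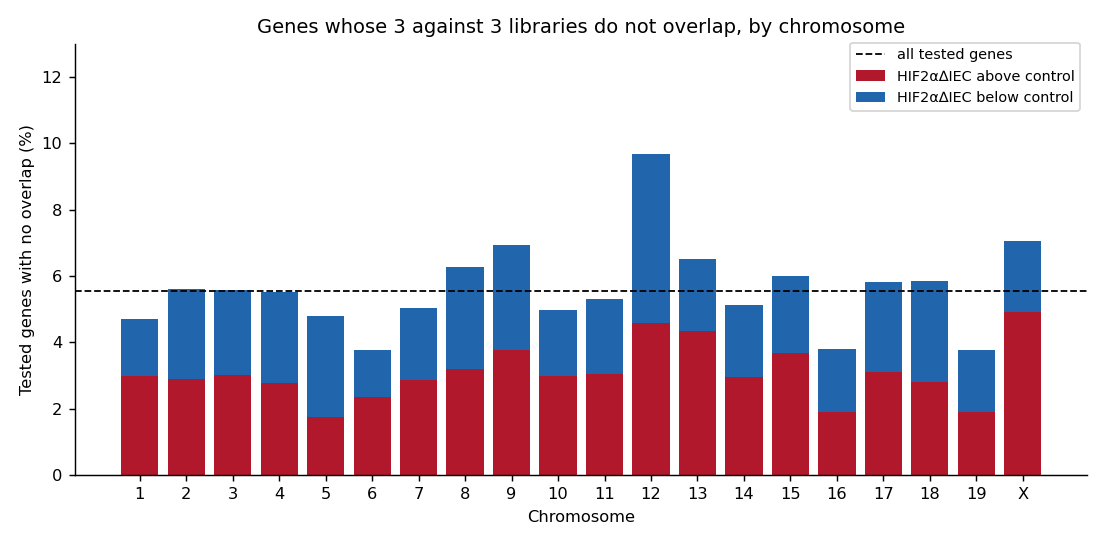
Share of tested genes (y axis, percent) whose 3 HIF2α∆IEC libraries all lie above (red) or all below (blue) the 3 controls, for chromosomes 1 to 19 and X, with the share over all tested genes (5.55%) as a dashed line. Chromosome 12 reaches 9.69%, split between both directions.

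Hif1a is on this chromosome, 44.0 Mb from Pxdn. In 10-Mb steps along chromosome 12, every step held at least 1 separating gene except that from 40 to 50 Mb, with 0 of 11 tested genes. Within 10 Mb of Hif1a 14 of 120 tested genes separated (11.7%), against 9.69% for the chromosome. Around Epas1 on chromosome 17 the numbers were lower: 1 of 24 tested genes within 2 Mb and 3 of 70 within 10 Mb (4.29%). The gene within 2 Mb was Cript, with 52.7, 39.9 and 40.7 CPM in HIF2α∆IEC, against 33.4, 31.0 and 37.1 CPM in controls. Of 5-Mb windows with at least 10 tested genes, 423 in all, the highest share was in chromosome 12 from 25 to 30 Mb, where 3 of 10 genes separated, among them Pxdn. From 2 Mb before Pxdn to 2 Mb after Acp1, 7 of 24 tested genes did so. That stretch was drawn around Pxdn and Acp1 after their values were seen, and 5 of 22 genes separated without them, against 5.55% of all tested genes.

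The members of chromosome 12 that both separated the groups and had an unadjusted p under 0.05 numbered 18, and those not yet described are given here, chosen after their values were seen. On the high side were Psma3, a proteasome subunit, with 71.0, 86.4 and 87.5 CPM in HIF2α∆IEC, against 48.9, 58.3 and 63.6 CPM in controls, and 9030617O03Rik with 97.1, 76.2 and 86.9 CPM, against 57.0, 42.8 and 55.5 CPM. Scfd1, a vesicle fusion factor, had 21.03, 12.99 and 12.7 CPM, against 6.25, 8.37 and 8.31 CPM. Serpina1b, an alpha-1-antitrypsin paralogue whose reads may be split among near-identical copies, had 7.18, 10.8 and 10.1 CPM, against 3.81, 2.72 and 3.49 CPM. The others on that side were Id2, an inhibitor of helix-loop-helix factors, Gpr22, Snapc1, Plekhd1 and Ighv5-4. Their log2 fold changes were 0.71, 2.32, 1.11, 1.80 and 3.37 in that order. Ighv5-4 had 2.42, 0.199 and 0.116 CPM in HIF2α∆IEC, against 0.0488, 0.0813 and 0.114 CPM in controls. Most of its excess thus lay in replicate 1, and the nearest libraries were almost equal. Plekhd1 had 2.83, 0.769 and 0.901 CPM, against 0.244, 0.569 and 0.455 CPM. Id2 was also highest in HIF2α∆IEC replicate 1, with only a small gap between the nearest libraries. Gpr22 was under 1 CPM in every library.

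On the low side were Greb1, known as an oestrogen-induced gene, with 6.68, 4.59 and 6.84 CPM in HIF2α∆IEC, against 11.3, 12.5 and 9.86 CPM in controls, and Foxn3, a forkhead repressor, with 1.73, 1.57 and 2.26 CPM, against 3.47, 3.54 and 3.79 CPM. Ylpm1 had 21.9, 12.9 and 19.1 CPM, against 43.2, 25.2 and 26.1 CPM, with only a small gap between the nearest libraries. Lamb1, a laminin chain of basement membranes, had 1.39, 0.883 and 1.46 CPM, against 2.54, 3.01 and 1.93 CPM.

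**Figure D4:**
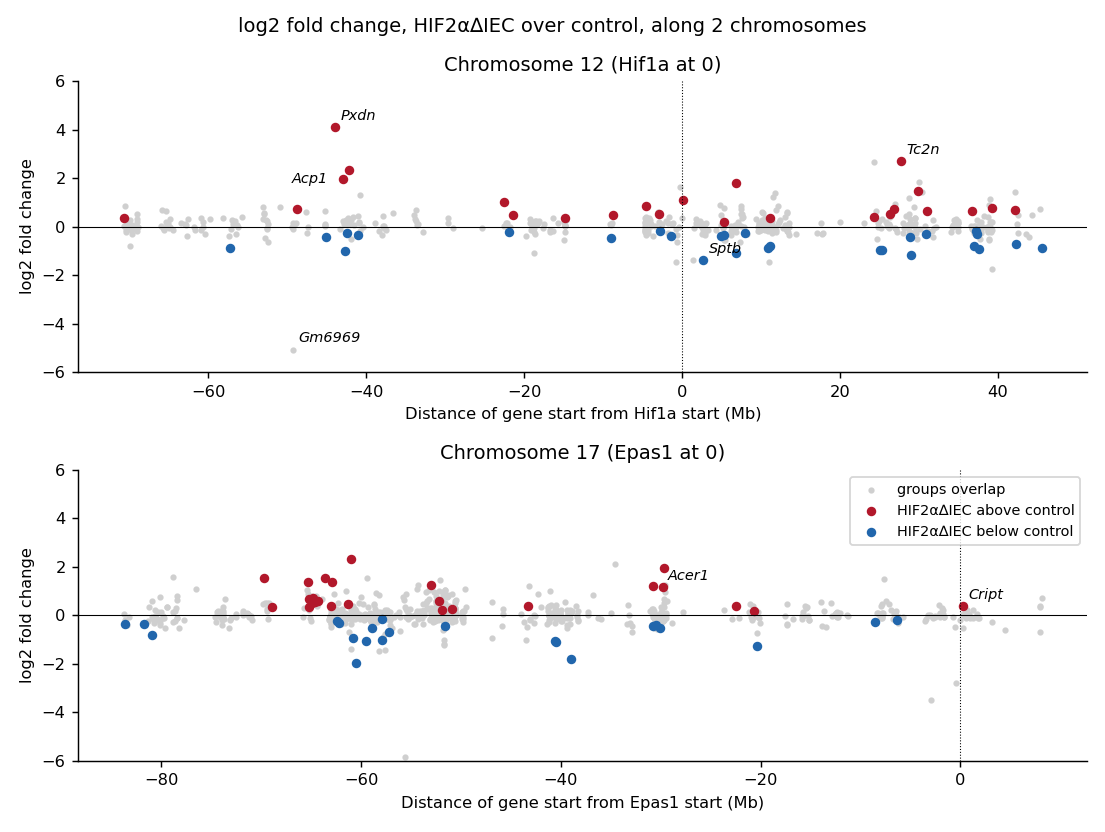
log2 fold change of HIF2α∆IEC over control (y axis) for tested genes of chromosome 12 and chromosome 17, immunoglobulin genes left out, against the distance of their start from that of Hif1a or Epas1 (x axis, Mb). Red and blue points, with no overlap between the groups, are spread along chromosome 12, and within 2 Mb of Epas1 there is 1 such gene, Cript.

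The known duties of HIF2α were read from gene lists, whose counts stand beside 0% called and 5.55% separated over all tested genes. Of 22 tested genes of intestinal iron handling, none passed the test and none separated the groups, with a median log2 fold change of 0.10. Slc11a2, the apical iron importer, had 81.0, 78.4 and 79.4 CPM in HIF2α∆IEC, against 106, 70.1 and 94.2 CPM in controls. Slc40a1, the iron exporter ferroportin, had 39.4, 5.07 and 6.19 CPM, against 16.7, 6.38 and 26.0 CPM, and Cybrd1, a ferric reductase, had 3.46, 2.11 and 3.67 CPM, against 4.10, 4.31 and 2.88 CPM. All 3 overlapped. Of 35 tested hypoxia-inducible targets, none passed the test and 1 separated the groups, with a median of 0.03. That gene, Angptl4, which inhibits lipoprotein lipase, had 25.2, 19.7 and 11.6 CPM in HIF2α∆IEC, against 7.52, 8.17 and 8.27 CPM in controls (log2 fold change 1.23 ± 0.33). Of the 10 HIF subunits, hydroxylases and VHL, none separated the groups, with a median of -0.05.

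Of 28 metallothionein and zinc or copper transport genes, 2 separated the groups, Mt1 and the zinc importer Slc39a10, with a list median of 0.09. Both lay above all controls. Of all tested genes 5.55% separated the groups and 3.03% lay above all controls. The intestinal zinc importer Slc39a4 overlapped at 220, 254 and 223 CPM in HIF2α∆IEC and 229, 173 and 219 CPM in controls. Of 11 tested basement membrane genes, 2 lay below all controls, Lamb1 and Nid2, with a median of -0.16. A further 10 genes of that list were too low to test, and 3 of them lay above all controls, each under 0.5 CPM. These were the collagen IV chains Col4a1, with 0.315, 0.427 and 0.324 CPM in HIF2α∆IEC, against 0.244, 0.0406 and 0.114 CPM in controls, and Col4a2, with 0.220, 0.285 and 0.277 CPM, against 0, 0.0406 and 0.114 CPM, and Nid1, which links laminin to collagen IV. Of 23 PPARα target and fatty acid oxidation genes, Angptl4 and the carnitine carrier Slc25a20 lay above all controls and Ppara, the receptor itself, below, with 7.53, 3.99 and 5.11 CPM in HIF2α∆IEC, against 8.30, 8.17 and 9.41 CPM in controls. The list's median was 0.25, and 0.00 without HIF2α∆IEC replicate 1.

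Several lists leaned on HIF2α∆IEC replicate 1. All 28 xenobiotic metabolism genes had a positive log2 fold change, median 0.51, but 11 did without that library, median -0.24. Cyp3a11, a drug-oxidising cytochrome, had 554, 29.2 and 62.9 CPM in HIF2α∆IEC, against 16.1, 62.0 and 39.1 CPM in controls, while the carboxylesterase Ces1g separated the groups with 10.1, 8.43 and 7.03 CPM, against 2.83, 3.70 and 6.15 CPM. Of 18 fat absorption genes 17 were positive, median 0.41, and 7 without it, median -0.09. Of 12 enterocyte markers 11 were positive, median 0.19, and 2 without it, median -0.11. Of 14 T and intraepithelial lymphocyte markers all were positive, median 1.31, and 0 without it, median -0.55, and their summed level was 3163, 289 and 289 CPM in HIF2α∆IEC, against 375, 525 and 429 CPM in controls. B and plasma cell markers summed to 1626, 159 and 111 CPM, against 236, 347 and 233 CPM. In none of these 5 lists did more than 1 gene separate the groups.

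Most tested stromal, mesothelial and erythroid markers lay above all controls in all 3 HIF2α∆IEC libraries, mainly at low levels. Of 9 tested stromal and muscle markers 8 did so, against 3.03% of all tested genes, with a median of 2.08 (2.11 without replicate 1). Tagln, the most abundant member, overlapped at 7.24, 5.33 and 5.75 CPM in HIF2α∆IEC and 5.66, 4.80 and 6.15 CPM in controls. The whole list, with its untested members, summed to 20.8, 15.5 and 19.1 CPM in HIF2α∆IEC, against 7.57, 7.36 and 10.1 CPM in controls. Lum, Acta2, Myh11 and Pdgfra, which also define these cells, were too low to test. Col3a1 had 2.83, 3.22 and 3.24 CPM in HIF2α∆IEC, against 0.391, 0.732 and 1.10 CPM in controls. It had 0.689, 3.59 and 4.10 CPM in HIF1α∆IEC, where Pxdn was at 0.906, 0.950 and 1.64 CPM. Of 4 tested mesothelial markers 3 lay above all controls, and the whole list summed to 8.03, 8.95 and 10.7 CPM, against 1.61, 3.82 and 5.65 CPM. Upk1b, the most abundant of these, overlapped at 4.16, 4.82 and 5.34 CPM in HIF2α∆IEC and 0.293, 3.37 and 4.48 CPM in controls. Of 5 tested erythroid genes 4 lay above all controls, and the whole list summed to 118, 18.9 and 13.1 CPM, against 4.30, 6.91 and 2.73 CPM. The part of these cells in the other low-level differences was not tested. In bulk RNA, more cells of a type and more RNA per cell cannot be told apart.

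Of the epithelial lineages, all 10 tested tuft cell markers had negative log2 fold changes, median -1.12, yet none separated the groups: they summed to 219, 103 and 87.8 CPM in HIF2α∆IEC, against 459, 226 and 146 CPM in controls. HIF2α∆IEC replicate 1 lay within the control range and control replicate 1 was the highest. Of 9 Paneth cell markers none separated the groups, median -0.42, and -0.12 without HIF2α∆IEC replicate 1, which had the lowest sum. Of 12 enteroendocrine markers only Cck, the hormone that empties the gallbladder, did so, with 42.1, 40.3 and 33.5 CPM, against 53.9, 43.5 and 50.1 CPM. Of 9 distal small intestine markers Mep1a, a brush border metalloprotease, lay above all controls and 8 were positive, median 0.21, and Fabp6, the ileal bile acid carrier, had 396, 629 and 701 CPM, against 146, 133 and 402 CPM, with a narrow overlap at control replicate 3. Of 9 crypt stem and proliferation markers and 20 immediate early genes none separated the groups, with medians of -0.05 and 0.40, and of 8 macrophage markers C1qb did.

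**Figure D5:**
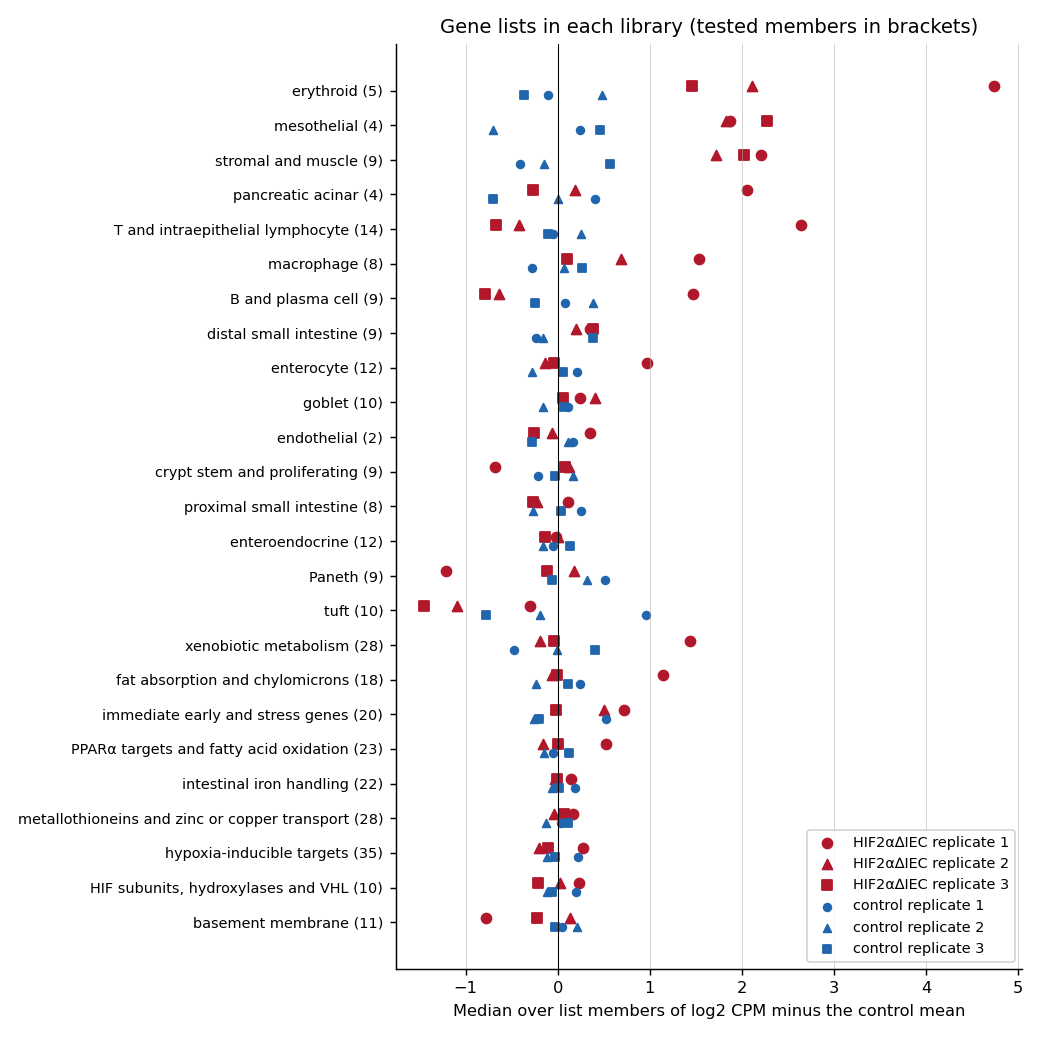
Median over list members of log2 CPM minus the control mean (x axis) for each HIF2α∆IEC library (red) and control (blue), 1 row per list, with the number of tested members in brackets. Erythroid, mesothelial and stromal lists have all 3 HIF2α∆IEC libraries above the controls, while lymphocyte, enterocyte, xenobiotic and fat absorption lists are raised in HIF2α∆IEC replicate 1 only.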

How the data were processed

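Per the labels' protocols, total RNA was extracted with Trizol and made into Illumina TruSeq libraries, 9 in all. The authors deposited raw counts per gene with coordinates, biotypes and gene names. The submitters' processing notes list the tools CASAVA and Bowtie 0.12.2 and mm10 as the build. How reads were counted, against which annotation and with which strand rule is not given in the sources used here. Near-identical copies, overlapping genes and antisense genes are therefore uncertain. Depths are given with the results. Within groups, the counts of any pair of libraries differed by a chi-square of 43.9 or more per gene, far over counting noise. None is thus a copy of another, but this does not tie them to separate animals. Some pairs across groups were closer. Control replicate 1 with HIF1α∆IEC replicate 1 had 17.8, and control replicate 3 with HIF2α∆IEC replicate 3 had 25.1.

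The main test was the quasi-likelihood F test of edgeR 4.0.16 (R 4.3.3) on all 9 libraries by group, after filterByExpr and TMM scaling, two-sided, with Benjamini-Hochberg adjustment over 15486 genes and calls under 0.05. The error of a log2 fold change is its SE. No overlap means that all 3 HIF2α∆IEC CPM lie above, or all below, all 3 control CPM. DESeq2 1.42.0, limma-voom (limma 3.58.1), other scalings and filters, a replicate block, a sex term and the removal of each HIF2α∆IEC and control library were alternatives, with that of each HIF1α∆IEC library in the comparison with HIF1α∆IEC added after seeing the data. The fit was tested on simulated counts with changes put into known genes. It called 4 of 65 genes changed 2-fold, 41 of 66 changed 4-fold and 58 of 63 changed 8-fold. It also called 13 unchanged genes. A gene that did not pass the test is thus not shown to be unchanged.

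Named genes are Epas1, Hif1a and Arnt, those of smallest p, the largest fold changes and CPM differences among non-overlapping genes, up to 2 per biotype or chromosome and up to 4 per gene list, with neighbours of Epas1; others are marked as chosen after their values were seen or were named for their place beside these. Neutrophil, endothelial and pancreatic acinar marker lists had 0, 2 and 4 tested members, of which 0 separated the groups, and proximal small intestine markers 8, of which 1 (Cck) did. The comparison, the gene lists and the rule were chosen with earlier results of these data known. Promoters are from RefSeq (GRCm38.p6).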

Additional observations from a re-analysis of the deposited data

How the results depend on the processing

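No gene was called in edgeR in the comparison with controls, with 287 genes at an unadjusted p under 0.05. No count filter gave 5 calls and 797 genes at that p, DESeq2 gave 5 calls, the replicate block 2 (Pxdn and Xist), a sex term 0 calls and 826 genes at that p, limma-voom 0 calls, and leaving out single libraries gave 0 to 1 calls and 186 to 594 genes, 470 without HIF2α∆IEC replicate 1. Both 1-gene calls were Pxdn, without HIF2α∆IEC replicate 1, and Gm6969, without control replicate 3. Against HIF1α∆IEC, where edgeR called 0 genes and 1021 had an unadjusted p under 0.05, no filter gave 10 calls, DESeq2 15 and leaving out single libraries of the 9 gave 0 to 1, which was Pxdn without HIF2α∆IEC replicate 1. Genes with no overlap numbered 859, 1420 with no filter, 1704 to 3015 with 5 libraries, where separation is easier by construction, and 825 on autosomes. Classes of counts with no overlap numbered 2, 1 without mitochondrial genes and 3 to 9 with 5 libraries. Class medians over 0.1 from that of all genes numbered 7, and 6 to 14 with 5 libraries.

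The replicate numbers gave no steady sign of pairing the samples. After each gene's group mean was subtracted from its log2 CPM, same-numbered HIF2α∆IEC and control libraries correlated at -0.164, -0.160 and 0.168. Same-numbered HIF1α∆IEC and control libraries correlated at 0.237, 0.170 and -0.0915. The closest pairs across groups, with a chi-square of 17.8 and 25.1 per gene, each shared a replicate number. Whether same-numbered libraries shared a batch was not tested. The replicate block is given only as an alternative. The Epas1 log2 fold change was 0.34 with a sex term and -0.98 to 0.12 with single libraries left out. For the other 79 genes named, 1218 of 1253 values under the alternatives kept their direction and side of the threshold, 12 passed the threshold only under the alternative (Pxdn, Mt1, Acp1, Gm6969 and the upstream Mical3 entry) and 23 turned their sign. All of these turns were in genes whose groups overlapped. With a sex term these were Cybrd1 (0.048), Lyz1 (-0.29), Mt2 (0.21) and Tmem18 (0.077). With limma-voom they were Arnt (-0.012) and Slc40a1 (-0.44), and with the replicate block Slc40a1 (-0.34). With single libraries left out, Arnt ranged from -0.085 to 0.18, Epcam from -0.0074 to 0.18, Lyz1 from -0.23 to 0.40, Mt2 from -0.45 to 0.17, Slc40a1 from -1.52 to 0.54, Tmem18 from -0.36 to 0.15 and mt-Co1 from -0.044 to 0.69. The cause of these turns was not tested.

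All 3 controls were read as male and HIF2α∆IEC replicates 2 and 3 as female, so without HIF2α∆IEC replicate 1 sex and group cannot be told apart. Libraries of HIF2α∆IEC were deeper than every control, and 246 of the 859 genes with no overlap averaged under 1 CPM, where few counts carry the difference. With 3 libraries a group an exact permutation test cannot go below p = 0.1.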
